A study of Mus musculus with 14 samples.

Results

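The genes described here encode osteopontin (Spp1) and its receptors, the adhesion receptor Cd44 and the integrin subunits Itga4, Itgb1, Itga5, Itga9, Itgav and Itgb3. Members were all probe sets whose platform annotation gives 1 of these 8 symbols alone. The rule found 7 of the 8 genes among the 12393 genes named on the array, and 20 of the 22626 probe sets tested, with 6 for Itgb1, 3 each for Itga4, Itga9 and Itgav, 2 each for Cd44 and Itga5, and 1 for Itgb3. No probe set carried the symbol Spp1 in the annotation used, so the ligand itself was not analysed here and the results concern its receptors.

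Osteopontin is a secreted, phosphorylated glycoprotein that binds cells through an RGD motif, which is read by integrins such as alpha-v beta-3, alpha-v beta-1 and alpha-5 beta-1. Cleavage by thrombin exposes a further motif that is read by alpha-4 and alpha-9 paired with beta-1, and Cd44, better known as the receptor for hyaluronan, has been described as another osteopontin receptor. In bone marrow the alpha-4 beta-1 receptor holds blood-forming cells to the stroma through Vcam1 and fibronectin, and osteopontin secreted by instigating tumours was tied in earlier work to the mobilisation of marrow cells that help distant tumours grow.

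RNA was measured on Affymetrix arrays in mouse bone marrow cells sorted as Sca1-positive and cKit-negative. The Matrigel group (n = 4) came from mice with an implant of Matrigel, a basement membrane extract, and no tumour. The Instigator group (n = 5) came from mice bearing a BPLER tumour, grown from transformed human mammary epithelial cells, and the Non-instigator group (n = 5) from mice bearing a PC3 tumour, grown from a human prostate carcinoma line, of matched size. The array titled Instigator 5 has a description that names the PC3 tumour, but its title and source give Instigator, which was followed. The labels used here do not give the strain, age or sex of the mice, or whether each array stands for its own animal. The p-values therefore rest on a spread between samples that may be technical.

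The values are deposited RMA intensities, printed here as log2 levels, where a difference of 1 is a doubling. The median probe set lay at 6.99 as a mean over the 14 arrays, and 10 of the 20 receptor probe sets lay at or above it. Since probes bind with different strength, these levels do not rank the genes by RNA amount, and bright and dim describe the array signal alone. The 5' signal of the control genes was furthest below the 3' signal on Instigator 4, with a log2 difference of -3.41 for beta-actin, where all others read -0.81 to -0.51, and -4.03 for Gapdh, where all others read -1.16 to -0.73. Matrigel 3 had a median log2 level of 7.18, against 6.90 to 7.01 on the others. Ly6a, the gene for Sca1, is not analysed here, and Kit lay at 7.18 to 8.05 in Matrigel, 7.36 to 7.93 in Instigator and 6.82 to 7.97 in Non-instigator arrays.

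Within the receptor set, the beta-1 and alpha-4 chains were lower in Instigator arrays than in Matrigel arrays by log2 differences of -0.28 and -0.60 at their brightest probe sets, and a dim probe set of alpha-5 was higher by 0.20. The alpha-4 value was -0.39 without Instigator 4, and the other bright alpha-4 set gave -0.22. At the brightest alpha-v set the 3 group means lay within 0.01 of one another. None of these differences passed the adjusted test. With limma and Benjamini-Hochberg adjustment over all 22626 probe sets, 0 of the 20 receptor probe sets were called at an adjusted p under 0.05 in any of the 3 comparisons, and 0.00% of all probe sets were called in each. Without Instigator 4, 1 probe set was called for Instigator against Matrigel, and it was not one of a receptor. Counts at an unadjusted p under 0.05 are therefore given as descriptions. For Instigator against Matrigel that count was 4 of 20 receptor probe sets, against 10.3% of all probe sets, with 3 of 20 lower (7.00% of all) and 1 higher (3.27% of all). It was again 4 of 20 for Instigator against Non-instigator, against 5.60% of all, with 3 lower (3.36% of all) and 1 higher (2.24% of all), and 0 of 20 for Non-instigator against Matrigel, against 2.11% of all. The first count was 2 when Matrigel 2, Matrigel 3 or Matrigel 4 alone was left out, and the second was 2 when Instigator 1, Instigator 4, Non-instigator 3 or Non-instigator 5 alone was left out. The last count was 2 without Matrigel 1 and 1 without Matrigel 2. Sets of 1 gene are repeat readings of it. The 3 lower sets against Non-instigator are all of Itgb1, and those against Matrigel are of Itgb1 and Itga4. By the brightest set of each gene, the count was 2 of 7 genes for Instigator against Matrigel. It was 1 of 7 for Instigator against Non-instigator and 0 of 7 for Non-instigator against Matrigel.

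**Figure D1:**
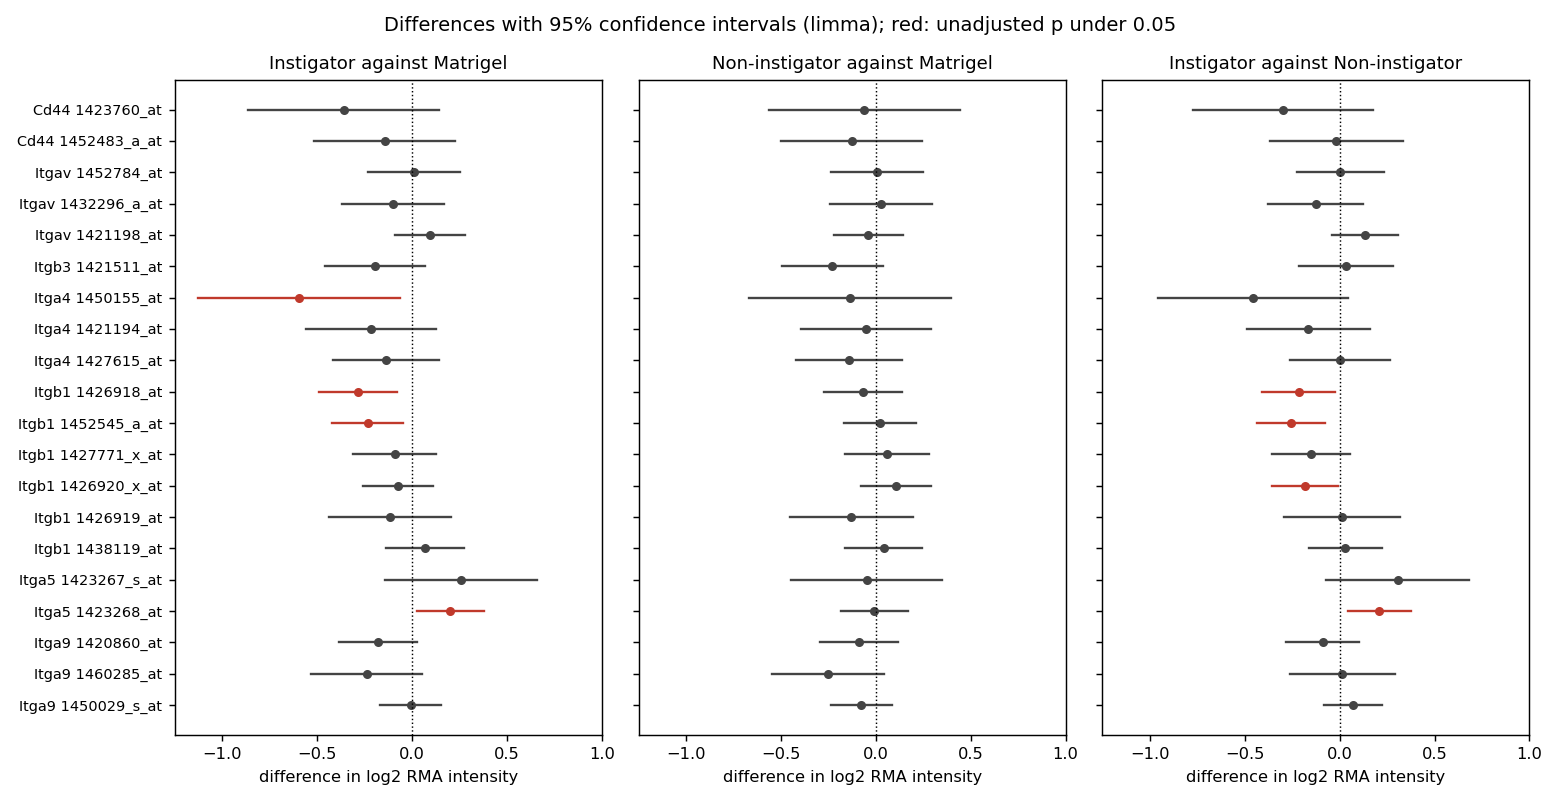
Log2 differences with 95% confidence intervals from limma at the receptor probe sets, for each of the 3 comparisons. At the brightest Itgb1 and Itga4 probe sets the interval of Instigator against Matrigel lies below 0, from -0.49 to -0.08 and from -1.13 to -0.06, while at Itgav it runs from -0.23 to 0.25.

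The promoters of Itga4 and Itgb1 are shown because these genes encode the 2 chains of 1 receptor and their levels varied together across the arrays. Each line gives the 250 bases before the start site from RefSeq on build GRCm38.p6, 5' to 3' on the plus strand, at chr2:79255176-79255425 for Itga4 and chr8:128685404-128685653 for Itgb1. Capitals mark the GC box letters GGGCGG.
Itga4: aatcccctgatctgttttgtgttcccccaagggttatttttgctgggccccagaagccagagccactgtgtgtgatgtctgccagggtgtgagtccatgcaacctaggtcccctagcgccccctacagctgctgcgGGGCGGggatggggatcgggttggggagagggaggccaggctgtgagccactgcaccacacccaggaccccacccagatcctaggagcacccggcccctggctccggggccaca
Itgb1: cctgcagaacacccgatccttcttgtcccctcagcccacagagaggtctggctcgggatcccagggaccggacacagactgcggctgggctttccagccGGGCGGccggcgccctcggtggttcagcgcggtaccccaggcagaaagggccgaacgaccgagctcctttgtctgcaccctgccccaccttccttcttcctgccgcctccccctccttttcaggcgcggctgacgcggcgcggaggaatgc
The GC box lay 114 bases before the start site in Itga4 and 151 bases before it in Itgb1. The letters GGGCGG occur on either strand in 32.9% of the 27018 promoters of that length, so holding them does not set the pair apart. Also searched on both strands were TATAAA (13% of promoters), CCAAT (34.5%) and GAGGAAGT (2.44%), none of which occur in these windows.

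Itgb1 encodes the beta-1 chain, the shared partner of alpha-4, alpha-5, alpha-9 and alpha-v in osteopontin binding. At its brightest probe set (1426918_at) the log2 levels were 9.43, 9.54, 9.58 and 9.52 in Matrigel arrays and 9.20, 9.29, 9.29, 9.01 and 9.38 in Instigator arrays. In the Non-instigator arrays they were 9.48, 9.41, 9.58, 9.20 and 9.58. Every Instigator array lay below every Matrigel array, while Non-instigator 4 lay within the Instigator range. The mean was 9.23 ± 0.14 (SD, n = 5) in Instigator against 9.52 ± 0.07 (SD, n = 4) in Matrigel, a difference of -0.28 (SE 0.10) or 1.22-fold lower, with a limma adjusted p of 0.439. Against the Non-instigator mean of 9.45 ± 0.16 (SD, n = 5) the difference was -0.22 (SE 0.09, limma adjusted p 0.813).

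At the second Itgb1 probe set (1452545_a_at) the Instigator arrays were again the lowest group. Its log2 levels were 8.12, 8.20, 8.16 and 8.26 in Matrigel, 7.96, 7.998, 8.07, 7.66 and 8.07 in Instigator, and 8.12, 8.26, 8.22, 8.16 and 8.26 in Non-instigator arrays. Here all 5 Instigator arrays lay below all 9 others. The difference was -0.23 (SE 0.09, limma adjusted p 0.442) against Matrigel and -0.26 (SE 0.08, limma adjusted p 0.813) against Non-instigator, and those comparisons share the Instigator arrays. Groups lying apart with the Instigator arrays lower was seen at 2 of 20 receptor probe sets against Matrigel, both of Itgb1, where 1.68% of all probe sets did so, and at 1 of 20 against Non-instigator, where 0.446% did. Without Instigator 4, the lowest array at both probe sets, the differences from Matrigel were -0.23 and -0.16. Non-instigator arrays differed from Matrigel arrays by -0.07 and 0.02 at the 2 sets, less than the SE of 0.10 and 0.09.

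Another, dim Itgb1 probe set (1426920_x_at) averaged 4.91 ± 0.16 (SD, n = 5) over the Instigator arrays, and the Non-instigator arrays averaged 5.09 ± 0.09 (SD, n = 5). The difference of -0.18 (SE 0.08) had a limma adjusted p of 0.813, and against Matrigel it was -0.07 (SE 0.09). The groups overlapped in both comparisons. The suffix x_at marks a set whose probes may also bind other transcripts.

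Itga4 encodes the alpha-4 chain, which joins beta-1 to bind Vcam1, fibronectin and thrombin-cut osteopontin. At its probe set with the highest mean (1450155_at) the log2 levels were 8.50, 9.15, 9.02 and 9.01 in Matrigel arrays. They were 8.04, 8.42, 8.69, 7.51 and 8.97 in Instigator and 8.47, 8.45, 8.99, 8.93 and 9.07 in Non-instigator arrays. Instigator 4, Instigator 1 and Instigator 2 were the 3 lowest of all arrays, while Instigator 3 and Instigator 5 lay among the rest, so the groups overlapped. The mean of 8.33 ± 0.57 (SD, n = 5) against 8.92 ± 0.29 (SD, n = 4) in Matrigel gave a difference of -0.60 (SE 0.25), 1.51-fold lower, with a limma adjusted p of 0.449. Against the Non-instigator mean of 8.78 ± 0.30 (SD, n = 5) it was -0.46 (SE 0.23, limma adjusted p 0.813). Without Instigator 4 these differences became -0.39 and -0.25, and with Instigator 5 counted as Non-instigator they became -0.76 and -0.65.

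The other bright Itga4 probe set (1421194_at) did not follow the first. Its levels were 8.43, 8.79, 8.64 and 8.66 in Matrigel, 8.26, 8.57, 7.92, 8.81 and 8.51 in Instigator, and 8.30, 8.40, 8.65, 8.80 and 8.75 in Non-instigator arrays. Instigator 4, the lowest array at the first set, was the highest at this one, and Instigator 3 was the lowest. The difference from Matrigel was -0.22 (SE 0.16, limma adjusted p 0.625), -0.32 without Instigator 4 and -0.09 without Instigator 3. Over the 14 arrays the 2 Itga4 sets had a Spearman rho of 0.37, which was 0.70 over the 12 arrays other than Instigator 4 and Matrigel 3. The bright Itgb1 pair had a rho of 0.67 with or without those arrays.

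**Figure D2:**
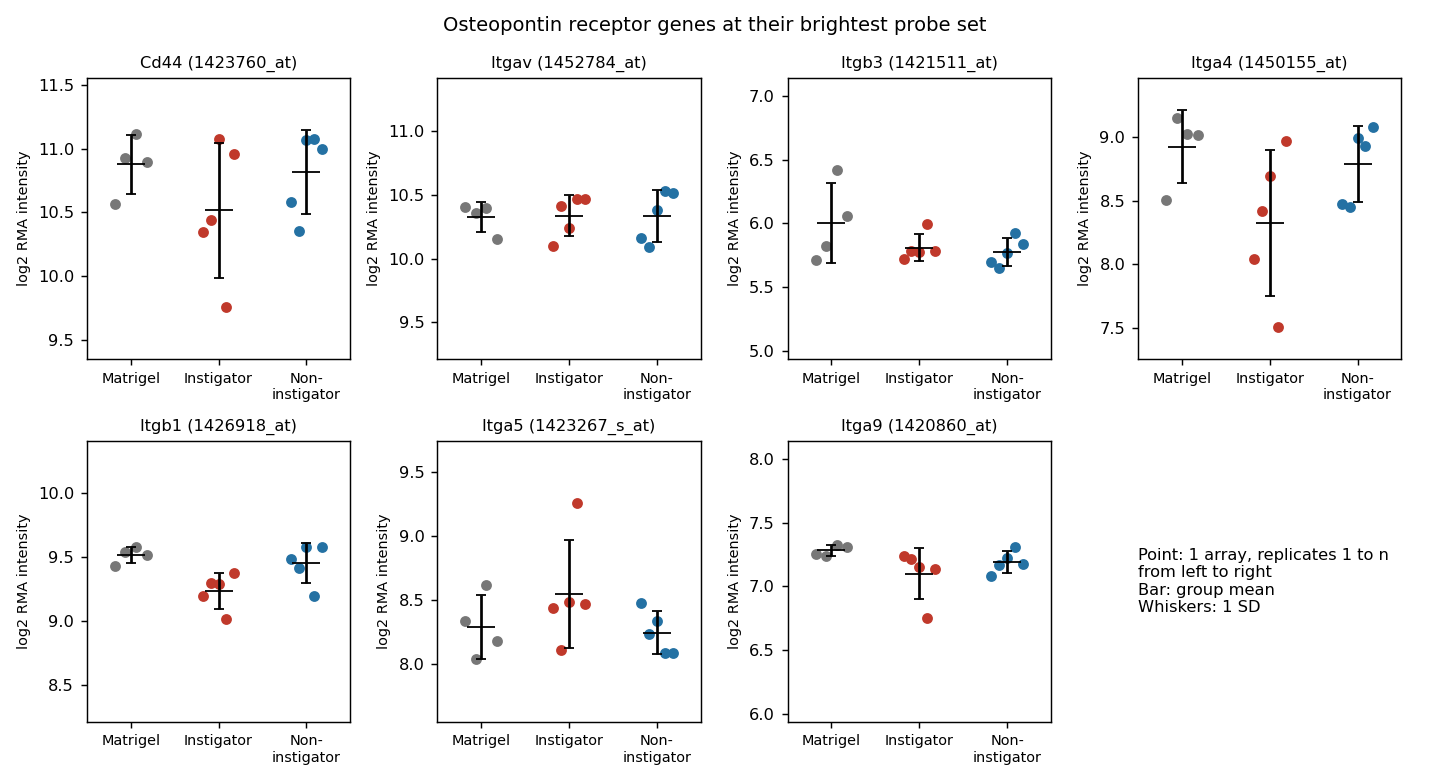
Log2 level of each receptor gene at its brightest probe set on every array, by group, with the group mean and SD. The Itgb1 points of the Instigator arrays (9.01 to 9.38) lie below those of all Matrigel arrays (9.43 to 9.58), and Itga4 is lowest on Instigator 4 at 7.51.

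Itga5 encodes the alpha-5 chain of the classical fibronectin receptor, which can also bind the RGD motif of osteopontin. At its brighter probe set (1423267_s_at) the log2 levels were 8.34, 8.03, 8.62 and 8.17 in Matrigel, 8.43, 8.11, 8.48, 9.25 and 8.46 in Instigator, and 8.48, 8.23, 8.34, 8.08 and 8.08 in Non-instigator arrays. Only Instigator 4 lay above the highest Matrigel array. The difference was 0.26 (SE 0.19, limma adjusted p 0.618) against Matrigel and 0.31 (SE 0.18, limma adjusted p 0.813) against Non-instigator, and without Instigator 4 it was 0.08 and 0.13.

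At the dimmer Itga5 set (1423268_at) the levels were 5.94, 5.997, 5.92 and 6.22 in Matrigel, 6.07, 6.19, 6.22, 6.27 and 6.36 in Instigator, and 6.01, 6.02, 5.94, 6.03 and 6.07 in Non-instigator arrays. The lowest Instigator and the highest Non-instigator array met at 6.07, and Matrigel 4 reached into the Instigator range. The difference was 0.20 (SE 0.08, limma adjusted p 0.445) against Matrigel and 0.21 (SE 0.08, limma adjusted p 0.813) against Non-instigator, and it was 0.19 and 0.20 without Instigator 4. With Instigator 5 counted as Non-instigator it was 0.17 and 0.12. This was the receptor probe set with an unadjusted p under 0.05 and higher levels in both comparisons, but the 2 Itga5 sets had a rho of only 0.13 over the 14 arrays.

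Itga9 encodes the alpha-9 chain, a relative of alpha-4 that binds thrombin-cut osteopontin and tenascin-C. Its brightest set (1420860_at) gave 7.26, 7.23, 7.32 and 7.31 in Matrigel, 7.24, 7.21, 7.15, 6.75 and 7.14 in Instigator, and 7.08, 7.17, 7.22, 7.31 and 7.17 in Non-instigator arrays. Instigator 4 was far below the rest, and the groups overlapped. The difference from Matrigel was -0.18 (SE 0.10, limma adjusted p 0.529) and -0.09 without Instigator 4.

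Itgav encodes the alpha-v chain, the most widely shared RGD-binding subunit. Its brightest set (1452784_at) gave 10.41, 10.35, 10.39 and 10.16 in Matrigel, 10.10, 10.41, 10.24, 10.47 and 10.47 in Instigator, and 10.16, 10.09, 10.38, 10.53 and 10.51 in Non-instigator arrays. The 3 groups covered one another, with means of 10.33 ± 0.12 (SD, n = 4), 10.34 ± 0.16 (SD, n = 5) and 10.33 ± 0.20 (SD, n = 5). The interval of Instigator against Matrigel ran from -0.23 to 0.25 around 0.01 (limma adjusted p 0.977), which bounds a difference in either direction without showing that there was none. The second Itgav set (1432296_a_at) differed by -0.10 (SE 0.13, limma adjusted p 0.772).

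Itgb3 encodes the beta-3 chain, which pairs with alpha-v on osteoclasts and with Itga2b on platelets. Its single probe set (1421511_at) was dim, with levels of 5.71, 5.82, 6.42 and 6.06 in Matrigel, 5.72, 5.78, 5.77, 5.99 and 5.78 in Instigator, and 5.69, 5.65, 5.77, 5.92 and 5.83 in Non-instigator arrays. Matrigel 3 was the highest of all, and the groups overlapped. Instigator differed from Matrigel by -0.19 (SE 0.12, limma adjusted p 0.581) and Non-instigator by -0.23 (SE 0.12, limma adjusted p 0.986), and without Matrigel 3 these differences were -0.05 and -0.09.

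Cd44 encodes the hyaluronan receptor. Its brighter set (1423760_at) gave log2 levels of 10.57, 10.93, 11.11 and 10.90 in Matrigel, 10.35, 10.44, 11.08, 9.76 and 10.96 in Instigator, and 10.58, 10.35, 11.07, 11.08 and 10.99 in Non-instigator arrays. The difference of Instigator from Matrigel was -0.36 (SE 0.24, limma adjusted p 0.590) and -0.17 without Instigator 4. From Non-instigator it was -0.30 (SE 0.22, limma adjusted p 0.822) and -0.11 without Instigator 4. The second set (1452483_a_at) differed from Matrigel by -0.14 (SE 0.17, limma adjusted p 0.758).

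For Non-instigator against Matrigel the brightest sets differed by -0.23 at Itgb3 (-0.09 without Matrigel 3), -0.14 at Itga4, -0.09 at Itga9, -0.07 at Itgb1, -0.06 at Cd44, -0.05 at Itga5 and 0.01 at Itgav, with limma adjusted p from 0.986 to 0.999. The 7 receptor probe sets not named singly were dim sets of Itga4, Itga9, Itgav and Itgb1. Their differences ran from -0.24 to 0.09 for Instigator against Matrigel, from -0.25 to 0.06 for Non-instigator against Matrigel and from -0.15 to 0.13 for Instigator against Non-instigator. The median difference over all 20 receptor sets was -0.13, -0.06 and -0.01 in those comparisons, beside -0.03, -0.04 and 0.02 over all probe sets tested. A negative difference was seen at 15, 14 and 10 of the 20, against 57.2%, 63.8% and 44.2% of all probe sets.

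Across arrays rather than groups, Cd44 lay on 2 sides of a gap at its brighter set, a division noticed after the values were seen and drawn at the widest gap that left at least 6 arrays on each side. On 6 arrays it lay from 9.76 to 10.58 and on the other 8 from 10.90 to 11.11, with nothing between. A wider step lay within the low side, between Instigator 4 at 9.76 and Instigator 1 at 10.35. The low side held 1 Matrigel, 3 Instigator and 2 Non-instigator arrays, so it crossed all 3 groups. Itga4 at its highest-mean set lay from 7.51 to 8.50 on the low side of Cd44 and from 8.69 to 9.15 on the high side, without overlap, although its own values show wider steps elsewhere, as between Instigator 4 at 7.51 and Instigator 1 at 8.04. Cd44 and Itga4 had a rho of 0.89 within the low side and of -0.40 within the high side. The second Cd44 set had no such gap, at 8.54 to 8.99 on the 6 arrays and 8.67 to 9.39 on the 8.

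Itga4 and Itgb1, the chains of 1 receptor, had a rho of 0.78 and an r of 0.78 over the 14 arrays. After the 2 arrays farthest from the median of Itga4 (Instigator 4 and Instigator 1) were left out, r was 0.45 and rho 0.65 over 12 arrays, so the linear relation rests in part on those arrays. These coefficients describe arrays that share processing and, within a group, a host condition, and carry no test.

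**Figure D3:**
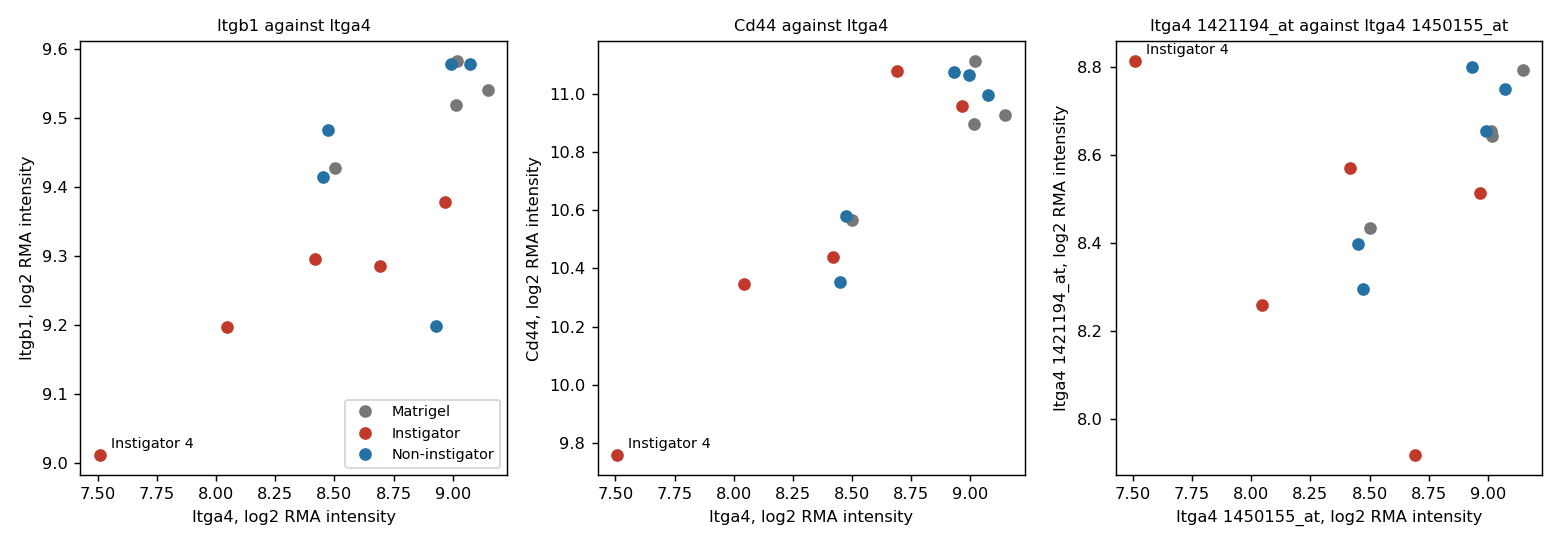
Log2 levels of pairs of receptor genes at their brightest probe sets, 1 point per array, coloured by group. Cd44 leaves a gap between 10.58 and 10.90, and Itga4 and Itgb1 are both lowest on Instigator 4, which the other bright Itga4 set places highest.

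**Figure D4:**
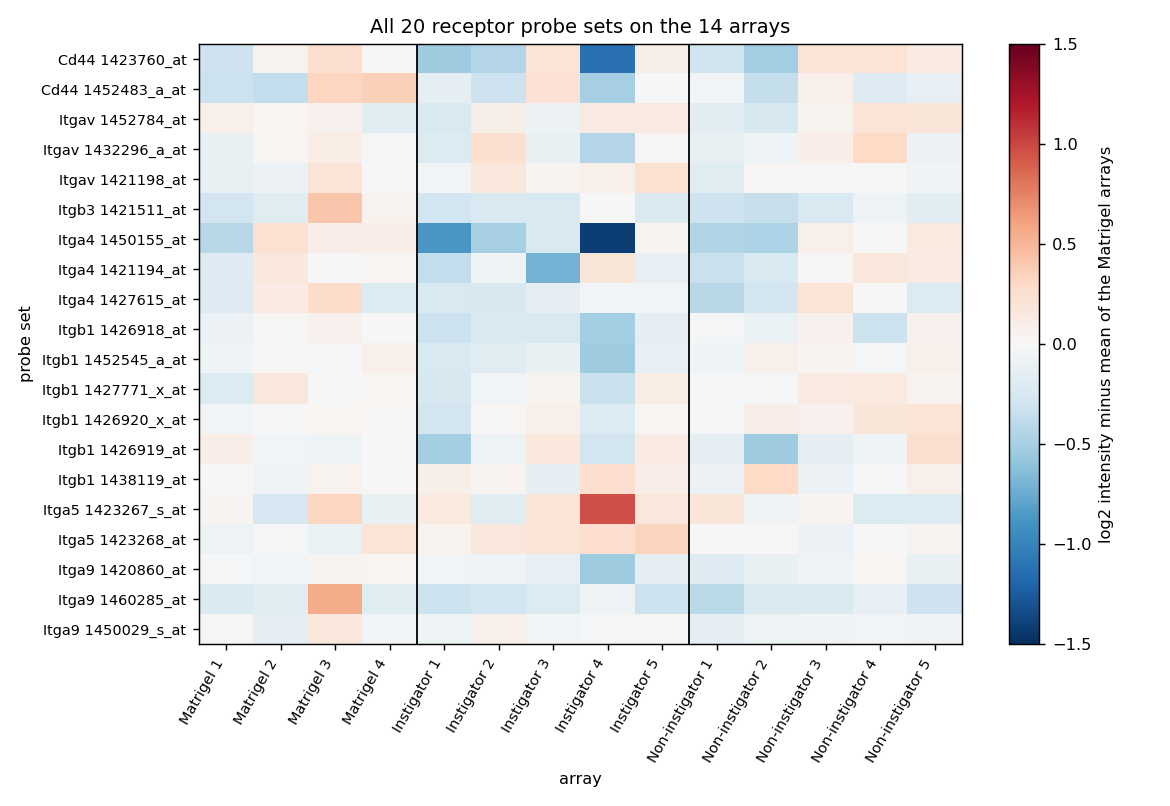
Log2 level of each of the 20 receptor probe sets minus its mean over the Matrigel arrays, with arrays in columns by group. At the brightest sets Instigator 4 is the lowest array in Itga4, Cd44, Itgb1 and Itga9 and the highest in Itga5.

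The genes most like each receptor gene were chosen by Spearman correlation over the 14 arrays among 6933 genes at or above the median level. For Itga4 they were Hip1 (0.94), Ociad1 (0.93) and 6820431F20Rik (0.93), and for Itgb1 they were Clip4 (0.90), Spsb3 (0.90) and Cdk5 (0.88). Cd44 was nearest to Glg1 (0.96), Larp4b (0.94) and Reep3 (0.94). The leading genes were Golga4 (0.91) for Itgav, Boc (0.87) for Itgb3, Khk (0.95) for Itga5 and Tff3 (0.86) for Itga9. A rho of at least 0.8 was reached by 200 genes for Itga5, 64 for Itga4, 54 for Cd44, 30 for Itgav, 22 for Itgb1, 3 for Itgb3 and 2 for Itga9. Itga5 thus had the most such genes of the 7 receptor genes, and Itgb3 and Itga9 the fewest. These counts were not set against those of other genes. They include Instigator 4, which at 9.25 was the highest array at this Itga5 set.

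Other genes of the pathway were read from 4 lists, by the brightest probe set of each gene. The lists were chosen with earlier results of these data known. In Instigator against Matrigel, 0 genes of any list were called by limma after adjustment. At an unadjusted p under 0.05 the counts were 1 higher and 0 lower of 16 other integrin subunits, 0 and 0 of 13 enzymes that process osteopontin, 1 and 0 of 15 other ligands of the same receptors, and 3 and 0 of 26 adhesion signalling genes. Of all probe sets, 3.27% were higher and 7.00% lower at that threshold, a share counted per probe set and not per gene. The lists' median differences were 0.06, -0.04, -0.01 and 0.07, beside -0.02 over all genes.

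Fn1, which encodes fibronectin, a ligand of alpha-4 beta-1 and alpha-5 beta-1, had log2 levels of 8.23, 8.36, 8.92 and 8.90 in Matrigel and 9.04, 9.17, 9.39, 9.76 and 8.81 in Instigator arrays. Only Instigator 5 lay within the Matrigel range. The difference was 0.63 (SE 0.20, limma adjusted p 0.439) against Matrigel, and 0.50 (SE 0.19, limma adjusted p 0.813) against Non-instigator. Tln1, which encodes talin, the activator of integrin beta tails, lay at 10.07 to 10.91 in Instigator and 9.82 to 10.01 in Matrigel arrays. The difference was 0.39 (SE 0.14, limma adjusted p 0.442) and 0.23 without Instigator 4. The Non-instigator arrays, at 10.04 to 10.22, also lay above the Matrigel arrays, with a difference of 0.20. Parvg, a parvin that links integrins to actin, differed by 0.49 (SE 0.16, limma adjusted p 0.439) and by 0.35 without Instigator 4. Its Instigator and Matrigel arrays overlapped. Fn1, Tln1 and Parvg were picked from their lists for size of difference, and none of them passed the adjusted test. Their lists went both ways, with 9 of 15 ligands and 10 of 26 adhesion signalling genes below 0. Vcam1, the other ligand of alpha-4 beta-1 named above, differed by -0.25 (SE 0.24, limma adjusted p 0.703).

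Of the other beta chains, Itgb2l differed from Matrigel by 0.32 (SE 0.11, limma adjusted p 0.442) and Itgb2, the leukocyte beta-2 chain, by 0.19 (SE 0.10, limma adjusted p 0.516). Itgb7, the other partner of alpha-4, differed by 0.14 (SE 0.10, limma adjusted p 0.630) and Itgb5, a partner of alpha-v, by 0.15 (SE 0.12, limma adjusted p 0.635); the last 2 were chosen as partners and not for size. Without Instigator 4 the difference was 0.12 for Itgb2 and 0.09 for Itgb5. The Non-instigator arrays differed from Matrigel in the same direction, by 0.20 for Itgb2l, 0.18 for Itgb2, 0.13 for Itgb7 and 0.13 for Itgb5, and the Instigator arrays differed from them by 0.12, 0.02, 0.01 and 0.02. Among enzymes, Mmp9, a matrix protease that cleaves osteopontin, differed by 0.38 (SE 0.18, limma adjusted p 0.488; 0.20 without Matrigel 3), and Fam20c, the kinase of secreted phosphoproteins, by 0.44 (SE 0.22, limma adjusted p 0.505). Fam20c rested on Instigator 4 at 7.60, without which the difference was 0.20. Among ligands, Vcan, the proteoglycan versican, differed by -0.25 (SE 0.15, limma adjusted p 0.573) and by -0.05 without Matrigel 3.

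In Instigator against Non-instigator, the lists held 0 of 16 integrin subunits at an unadjusted p under 0.05. Each of the other 3 lists, of 13, 15 and 26 genes, held 1 gene higher and 1 lower. Of all probe sets, 2.24% were higher and 3.36% lower. Acp5, a phosphatase of osteoclasts and macrophages that removes phosphate from osteopontin, differed by -0.62 (SE 0.21, limma adjusted p 0.813). Thbs1, the matrix protein thrombospondin-1, differed by -0.60 (SE 0.21, limma adjusted p 0.813). The Thbs1 set was dim, at 4.71 to 5.51 in Instigator and 4.98 to 6.19 in Non-instigator arrays. Cd9, a tetraspanin that associates with beta-1 integrins, differed by -0.43 (SE 0.19, limma adjusted p 0.813) and by -0.23 without Instigator 4, where it lay at 7.85. Cd151, another such tetraspanin, differed by 0.37, but by 0.04 without Instigator 4. For Non-instigator against Matrigel the 4 lists held 0 genes at an unadjusted p under 0.05, beside 2.11% of all probe sets.

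Some lists of cell type markers varied with Itga4 and Itgb1. The lists were chosen with earlier results of these data known, so the counts below are descriptions and not tests of the lists. They take the brightest set of each gene, while the shares beside them are over all probe sets. Over 7 B lineage genes the mean log2 level per array was 8.93 to 9.40 in Matrigel, 8.02 to 9.15 in Instigator and 8.36 to 9.67 in Non-instigator arrays, with a median difference of -0.65 for Instigator against Matrigel and 3 of 7 lower at an unadjusted p under 0.05, where 7.00% of all probe sets were. Over 5 dendritic cell genes it was 8.35 to 9.07, 7.34 to 8.39 and 7.61 to 8.77. The median difference was -0.77, with 4 of 5 lower at an unadjusted p under 0.05, beside the same 7.00%. The B lineage mean had a rho of 0.57 with Itga4 and 0.54 with Itgb1 over the 14 arrays, and the dendritic mean 0.52 and 0.58. With Cd44 these means had a rho of 0.30 and 0.03, with Itgav 0.42 and 0.07, and with Itgb3 0.29 and 0.10. The rho was 0.55 and 0.42 with Itga9, and -0.56 and -0.64 with Itga5. Other lists ran the opposite way to Itga4 and Itgb1. The mean of 8 basophil, mast cell and eosinophil genes lay at 7.85 to 8.64 in Matrigel arrays. It lay at 8.52 to 9.30 in Instigator and 8.49 to 9.02 in Non-instigator arrays. This mean had a rho of -0.43 with Itga4 and -0.52 with Itgb1. For Instigator against Matrigel the median difference was 0.47 and 7 of 8 genes were above 0, where 57.2% of all probe sets were below 0. Of the 8, only 1 was higher at an unadjusted p under 0.05, beside 3.27% of all probe sets. Of 8 neutrophil genes, 7 were above 0 in that comparison, 4 of them at an unadjusted p under 0.05 (3.27% of all probe sets were), with a median difference of 0.15 and a rho of -0.38 and -0.41. In the same direction, the median differences of Non-instigator from Matrigel were 0.42 for the basophil list and 0.12 for the neutrophil list. They were -0.24 for the B lineage list and -0.32 for the dendritic list. For Instigator against Non-instigator the medians were, in that order, 0.02, 0.08, -0.35 and -0.46. The part of these cell types in the Itga4 and Itgb1 levels was not tested, and in bulk cells fewer cells of a type and less RNA per cell cannot be told apart.

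Itgav had a rho of 0.78 with the mean of 7 T cell genes, which lay at 9.05 to 9.44 in Matrigel, 8.31 to 9.47 in Instigator and 8.57 to 9.96 in Non-instigator arrays. Itgb3 had a rho of 0.29 with 8 megakaryocyte and platelet genes, at 5.91 to 6.34, 5.60 to 6.03 and 5.79 to 6.40, and of -0.60 with 8 neutrophil genes, at 12.15 to 12.40, 12.32 to 12.58 and 12.24 to 12.54. Itga4 had a rho of 0.67 with 6 osteoblast genes, at 5.79 to 5.91, 5.84 to 5.94 and 5.77 to 5.98, and Itga5 of -0.65 with 5 osteoclast genes, at 6.82 to 6.97, 6.63 to 7.05 and 6.86 to 7.08. The macrophage genes, 10 in number, lay at 6.75 to 7.04, 6.63 to 7.34 and 6.65 to 6.99. These coefficients were picked from all pairs of a list and a receptor gene. Others were also sizeable, such as 0.55 for Itga4 with the megakaryocyte and platelet genes. The osteoblast mean lay below the median probe set level of 6.99 on every array. The part of these cell types in the receptor levels was not tested.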

How the data were processed

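Expression was measured in 14 samples, 1 per array, and groups came from sample titles. The authors deposited a table of linear intensity values for 22690 probe sets, made with RMA in affy under R 2.11.0, per the submitters' processing notes. RMA corrects background, normalizes between arrays and summarises probes, and those notes do not state its options. The intensity values were not normalized again, and log2 was taken. After 64 control probe sets were left out, 22626 were tested. The platform annotation gives 1 symbol to 20380 of the deposited non-control probe sets, several to 691 and none here to 1555. Each gene stood for its brightest probe set, giving 12393 genes. The number of arrays limits the precision. No array pair was identical.

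One limma fit (version 3.58.1, under R 4.3.3, with lmFit, contrasts.fit and eBayes) covered all 14 arrays, with group as the factor. Benjamini-Hochberg adjustment ran over 22626 probe sets. The fit was tested on simulated data. Genes named were the members, the 3 genes most like each by Spearman correlation, and, from each list, up to 4 genes by size of difference, of which at most 2 a comparison are printed. Itgb5 and Itgb7 were added as partners of Itgav and Itga4. Of 146 listed genes, 128 were measured. The members and lists were chosen with earlier results of these data known. Promoters came from a RefSeq table on GRCm38.p6 that matched 6 of 7 receptor genes. Alternatives changed the samples compared, the filter, the normalization, the variance model, array weights, the replicate block, the group of Instigator 5, single arrays left out, gene means and the correlation measure, and leaving out Instigator 4 and Matrigel 3 together was one. Alternatives for pathway genes were added after seeing the data. Plots used matplotlib 3.10.9 under Python 3.11.15.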

Additional observations from a re-analysis of the deposited data

Results flagged for a closer look

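Within a group, single arrays stood far from the others at 4 of the 60 combinations of receptor probe set and group tested by Dixon's criterion, which flags about 1 in 20 groups by chance. Instigator 4 accounted for 3 of them. At Itgb3 (1421511_at) it lay at 5.99, above the nearest Instigator array at 5.78. At Itgb1 (1452545_a_at) it lay at 7.66, below the nearest at 7.96, and at Itga9 (1420860_at) at 6.75, below the nearest at 7.14. The remaining one was a dim Itga9 probe set (1460285_at), where Matrigel 3 lay at 5.77 and the nearest Matrigel array at 5.06. These are the arrays that stood apart in the control and median values.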

How the results depend on the processing

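The 39 differences at singly described receptor probe sets were recomputed under 888 alternatives in all. The sign turned in 55, of which 28 were among the 342 alternatives other than single arrays left out. Many of the 888 could not change a difference. Leaving out an array of a group outside the comparison returns the same value, as do settings that change only the variance or the adjustment. The share of turned signs therefore does not measure how stable the signs are. No receptor probe set was called under any alternative, and 1 probe set in all was called for Instigator against Matrigel without Instigator 4, alone or together with Matrigel 3. Itga4 and both bright Itgb1 sets kept a negative Instigator difference throughout, from -0.76 to -0.36 for Itga4 (1450155_at) and from -0.32 to -0.21 for Itgb1 (1426918_at) against Matrigel, with limma adjusted p from 0.250 to 0.755. The cause of the turned signs was not tested. Of the receptor differences that turned, the farthest from 0 as reported was Cd44 (1452483_a_at) at -0.14 for Instigator against Matrigel. Vcan, at -0.25, also turned, but it and the gene means given below are outside that count. For Instigator against Matrigel, Cd44 (1452483_a_at) was 0.030 with array weights and 0.052 without both Instigator 4 and Matrigel 3. Itgav (1452784_at) was -0.00944 with weights, -0.000628 without both arrays and -0.023 with Instigator 5 counted as Non-instigator, and Itgav (1432296_a_at) was 0.00100 with weights and 0.022 without both arrays. Itgb1 (1426920_x_at) was 0.00196 after centring on the array median, and Vcan was 0.00134 without both arrays. For Non-instigator against Matrigel, Cd44 (1423760_at) was 0.069 with weights and 0.018 without both arrays, and Cd44 (1452483_a_at) was 0.065 with weights. Itga4 (1421194_at) was 0.00395 after centring, Itgb1 (1452545_a_at) -0.00128 with Instigator 5 moved, and gene means over probe sets were -0.00170 for Itgav and 0.00564 for Itgb1. Itga5 (1423267_s_at) was 0.00773 after centring, 0.083 with weights and 0.061 without both arrays, and Itga5 (1423268_at) was 0.045 with quantile normalization, 0.048 after centring and 0.050 with Instigator 5 moved. For Instigator against Non-instigator, Cd44 (1452483_a_at) was 0.00238 after centring and 0.070 without both arrays. Itgav (1452784_at) was -0.074 with weights, -0.052 with Instigator 5 moved and -0.030 without both arrays, and Itgb3 was -0.026 and -0.011 with weights and without both arrays.

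With single arrays left out, the range that crossed 0 for Instigator against Matrigel was -0.048 to 0.069 at Itgav (1452784_at). For Non-instigator against Matrigel they were -0.16 to 0.054 at Cd44 (1423760_at), -0.051 to 0.068 and -0.040 to 0.064 at the bright Itgav sets, -0.12 to 0.019 at Itga4 (1421194_at), and -0.13 to 0.061 and -0.040 to 0.059 at the Itga5 sets. For Instigator against Non-instigator they were -0.11 to 0.070 at Cd44 (1452483_a_at), -0.058 to 0.062 at Itgav (1452784_at) and -0.011 to 0.072 at Itgb3.

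The groups share replicate numbers, but over 13 same-numbered pairs the deviations correlated from -0.20 to 0.27, with 5 over 0.1, and 2 of 14 arrays correlated best with their own number. With the replicate number as a block, 0 receptor probe sets were called, Itga4 differed by -0.71 for Instigator against Matrigel, and Itgav (1452784_at) turned to -0.029 for Instigator and -0.032 for Non-instigator against Matrigel. The unadjusted count of 4 receptor sets for Instigator against Matrigel was 2 with quantile normalization and without both arrays, and that for Instigator against Non-instigator was 2 among the brighter probe sets and without both arrays. Of the 3 genes most like each receptor gene, without both arrays 1 was shared for Cd44, Itgav and Itga5 and 0 for Itgb3. With Pearson's coefficient 0 were shared for Itgav and Itga5, and 1 for Itgb3, Itga4, Itgb1 and Itga9.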
